A study of Mus musculus with 6 samples.

Results

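The immediate early factors described here are 10 genes, measured in eWAT, the white fat pad that lies along the epididymis: Egr1, Egr2, Egr3, Nab2, Fos, Fosb, Jun, Junb, Atf3 and Nr4a1. They were taken by symbol from the 17024 genes measured, with 14 probes in all, and 8 of the 10 genes had a single probe. The genes were listed with the db/db against db/+ values of these arrays known, so their differences between genotypes are given as a description without p-values. RNA came from 3 db/db mice, which have no functional long leptin receptor and which the labels call obese and severely hyperglycemic, and from 3 lean db/+ controls. All were 10 weeks old and, per the file headers, vehicle-treated. Each two-colour array compared 1 mouse, labelled with Cy5, with a Cy3-labelled lean eWAT pool that was also vehicle-treated, and dyes were not swapped. The labels call the 3 arrays of a genotype biological replicates, and the deposited columns give the mice as 51, 52 and 53 (db/db) and 1, 2 and 3 (db/+). The question of the series is which transcripts differ between obese and lean eWAT.

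Immediate early genes are transcribed within minutes of a stimulus, from promoters that serum response factor with its ternary complex partners and CREB family factors occupy beforehand. EGR proteins are zinc finger activators held in check by the corepressors NAB1 and NAB2, and FOS, JUN and some ATF proteins pair through leucine zippers to form AP-1. In adipose tissue such factors have been described in differentiating adipocyte precursors, in macrophages and in stressed or injured tissue, and they also respond to the handling of a tissue before it is frozen.

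RefSeq promoter windows of assembly GRCm38.p6, from 250 bases before to 50 bases after a transcription start, were at hand for 8 of the 10 genes. The 250 bases before the start are shown for 5 of them. Egr2, Atf3 and Junb were higher in db/db, and Fos and Nr4a1, set beside them, also hold the CRE core. The Fosb window, which holds a CRE core and an EGR site, is not shown. The Nab2 and Jun windows hold no match and are not shown. Capitals mark matches to the CRE core TGACG, to the CArG box that serum response factor binds, and to the EGR site GCGNGGGCG, on either strand, with the last base just before the start. The Egr2 window is chr10:67537619-67537868 (plus strand), the Fos window chr12:85473640-85473889 (plus), the Junb window chr8:84978749-84978998 (minus), the Atf3 window chr1:191183334-191183583 (minus) and the Nr4a1 window chr15:101266596-101266845 (plus).
Egr2: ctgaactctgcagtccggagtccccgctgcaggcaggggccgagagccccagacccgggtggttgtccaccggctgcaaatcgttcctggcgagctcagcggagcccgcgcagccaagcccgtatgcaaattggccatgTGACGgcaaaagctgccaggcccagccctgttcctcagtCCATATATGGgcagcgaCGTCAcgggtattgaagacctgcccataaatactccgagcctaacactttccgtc
Fos: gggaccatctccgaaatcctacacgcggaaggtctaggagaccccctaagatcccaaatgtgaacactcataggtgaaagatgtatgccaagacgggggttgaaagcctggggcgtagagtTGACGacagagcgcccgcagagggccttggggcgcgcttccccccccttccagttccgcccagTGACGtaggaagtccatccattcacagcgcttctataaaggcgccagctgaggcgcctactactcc
Junb: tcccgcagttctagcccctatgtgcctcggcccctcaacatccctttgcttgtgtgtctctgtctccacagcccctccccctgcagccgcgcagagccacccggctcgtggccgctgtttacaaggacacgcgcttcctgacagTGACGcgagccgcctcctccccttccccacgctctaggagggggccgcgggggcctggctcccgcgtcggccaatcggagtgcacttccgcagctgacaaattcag
Atf3: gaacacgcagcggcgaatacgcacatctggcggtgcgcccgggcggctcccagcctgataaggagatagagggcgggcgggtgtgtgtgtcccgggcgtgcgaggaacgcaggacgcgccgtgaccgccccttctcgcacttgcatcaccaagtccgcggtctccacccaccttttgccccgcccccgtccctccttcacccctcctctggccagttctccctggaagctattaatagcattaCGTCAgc
Nr4a1: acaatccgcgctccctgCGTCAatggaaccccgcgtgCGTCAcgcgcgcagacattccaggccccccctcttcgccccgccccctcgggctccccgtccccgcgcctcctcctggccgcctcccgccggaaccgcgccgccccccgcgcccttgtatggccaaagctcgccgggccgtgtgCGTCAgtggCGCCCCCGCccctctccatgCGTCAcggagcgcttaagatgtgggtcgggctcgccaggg

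The CRE core was in the windows of Atf3, Egr2, Fos, Fosb, Junb and Nr4a1, 6 of the 8 genes and 8 of their 12 windows, where 20.8% of all 32851 windows of the same length hold it. A CArG box was found in 1 gene, Egr2, in 4 of its 5 windows, against 1.63% of all windows. In the Egr2 window shown, the CArG box runs from -72 to -63 and lies between CRE cores that begin at -111 and -55. The EGR site was in the windows of Fosb and Nr4a1, and 5.55% of all windows hold it. The AP-1 site TGANTCA was in none of the 8 genes' windows, against 7.81% of all windows, and neither was the full CRE TGACGTCA, which contains the CRE core, against 1.79%. These matches describe letters in the windows and say nothing about binding in this tissue. Sequence further from the starts was not searched, so a gene without a match here may hold one elsewhere.

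Of the 10 genes, Egr2, Atf3, Nab2 and Junb were higher in db/db at a limma adjusted p under 0.05, 0 were lower, and 6 did not pass. Across all 17024 genes 6.7% passed, 2.95% higher and 3.75% lower. The genes were chosen on this contrast, so nothing is read from their count. Their median log2 fold change was 0.57, against 0.00 over all genes. The 4 calls depended on single arrays: all 4 stood without db/db mouse 51, none without db/db mouse 52 and only Nab2 without db/db mouse 53, and none stood without db/+ mouse 1, 2 or 3. The calls over all genes numbered 3413, 250 and 580 without db/db mouse 51, 52 and 53, and 168, 115 and 53 without db/+ mouse 1, 2 and 3. By a reading that needs no model, db/db and db/+ ratios were fully separate for 6 of the 10 genes, 5 higher and 1 lower, where 26.1% of the 16858 genes measured on all arrays did so (11.5% higher, 14.6% lower).

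**Figure D1:**
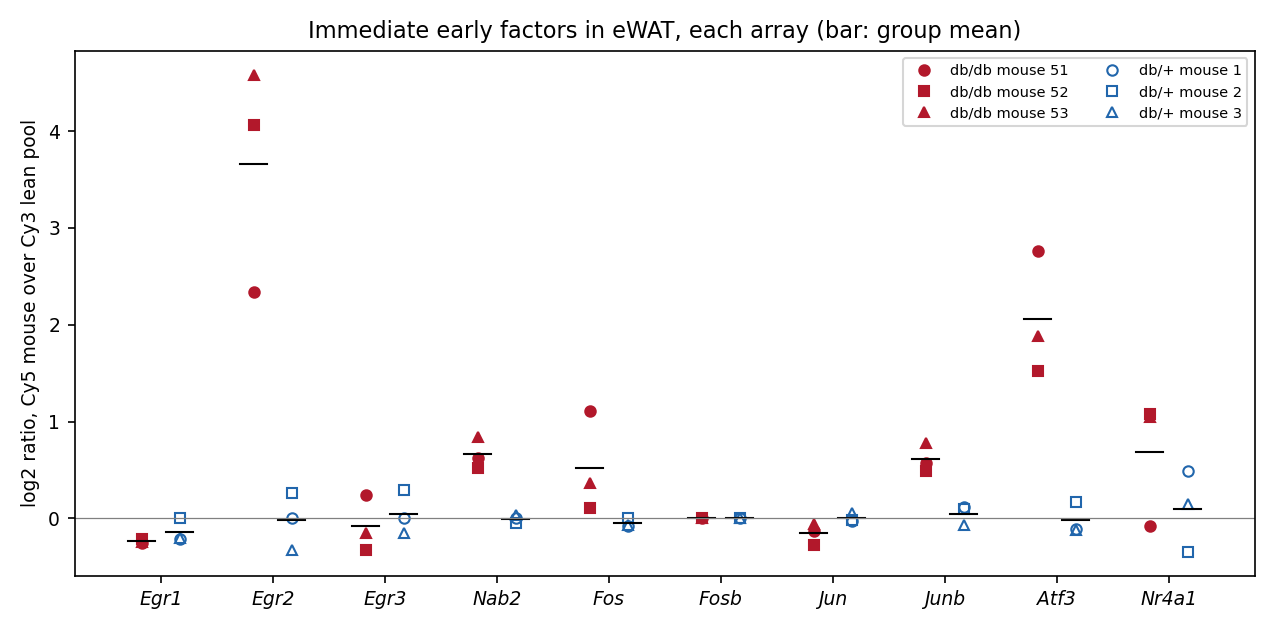
Log2 ratio of the mouse (Cy5) over the lean pool (Cy3) for the brightest probe of each gene, with a point for each of 3 db/db arrays (filled) and 3 db/+ arrays (open) and a bar at each group's mean. The db/db points of Egr2 and Atf3 stand above 1.5, while Fosb lies at 0.00 on all arrays and the db/db points of Nr4a1 run from -0.08 to 1.08.

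Egr2, which in mice drives Schwann cell myelination and acts in macrophages and adipocyte precursors, had the highest fold change of the 10 genes. Its Cy5 intensity was 1.21, 5.70 and 6.23 in db/db mice 51, 52 and 53, against 0.24, 0.30 and 0.20 in db/+ mice 1, 2 and 3. The groups lay far apart, and mouse 51 was well below the other db/db mice. The lean pool on the same arrays gave between 0.24 and 0.34, so the db/db increase sat in the mouse channel. The log2 ratios were 2.33, 4.07 and 4.58 in db/db, against 0.00, 0.26 and -0.32 in db/+. The log2 fold change of Egr2 was thus 3.68 ± 0.64 (SE, n = 3 per group), a 12.8-fold difference. RNA of whole tissue cannot tell more cells that express a gene from more RNA per cell, here and in each comparison that follows.

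The other EGR genes did not share this increase, and at their dim signals no direction was settled. Egr1, the EGR factor most widely induced by growth factors, had Cy5 intensities of 0.21, 0.19 and 0.16 in db/db, against 0.19, 0.23 and 0.26 in db/+. The groups overlapped. Its log2 fold change was -0.10 ± 0.07 (SE), with ratios between -0.25 and -0.21 in db/db and between -0.21 and 0.00 in db/+. Egr3, which mice need to form muscle spindles, was dim, at 0.13, 0.08 and 0.09 in db/db and 0.10, 0.11 and 0.09 in db/+. Its ratios overlapped and its log2 fold change was -0.12 ± 0.19 (SE). Intensities are given in steps of 0.01, so a single step moves the Egr1 and Egr3 ratios visibly. Nab2, the EGR-induced corepressor that limits EGR activity, gave 2.95, 2.76 and 3.43 in db/db, against 1.85, 1.86 and 1.93 in db/+. Every db/db mouse was above every db/+ mouse, the spread within each group was narrow, and the fold change was 0.66 ± 0.09 on the log2 scale (SE). The pool signal of Nab2 varied by 1.74% (coefficient of variation over 6 arrays), the lowest of the 10 genes apart from Fosb.

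**Figure D2:**
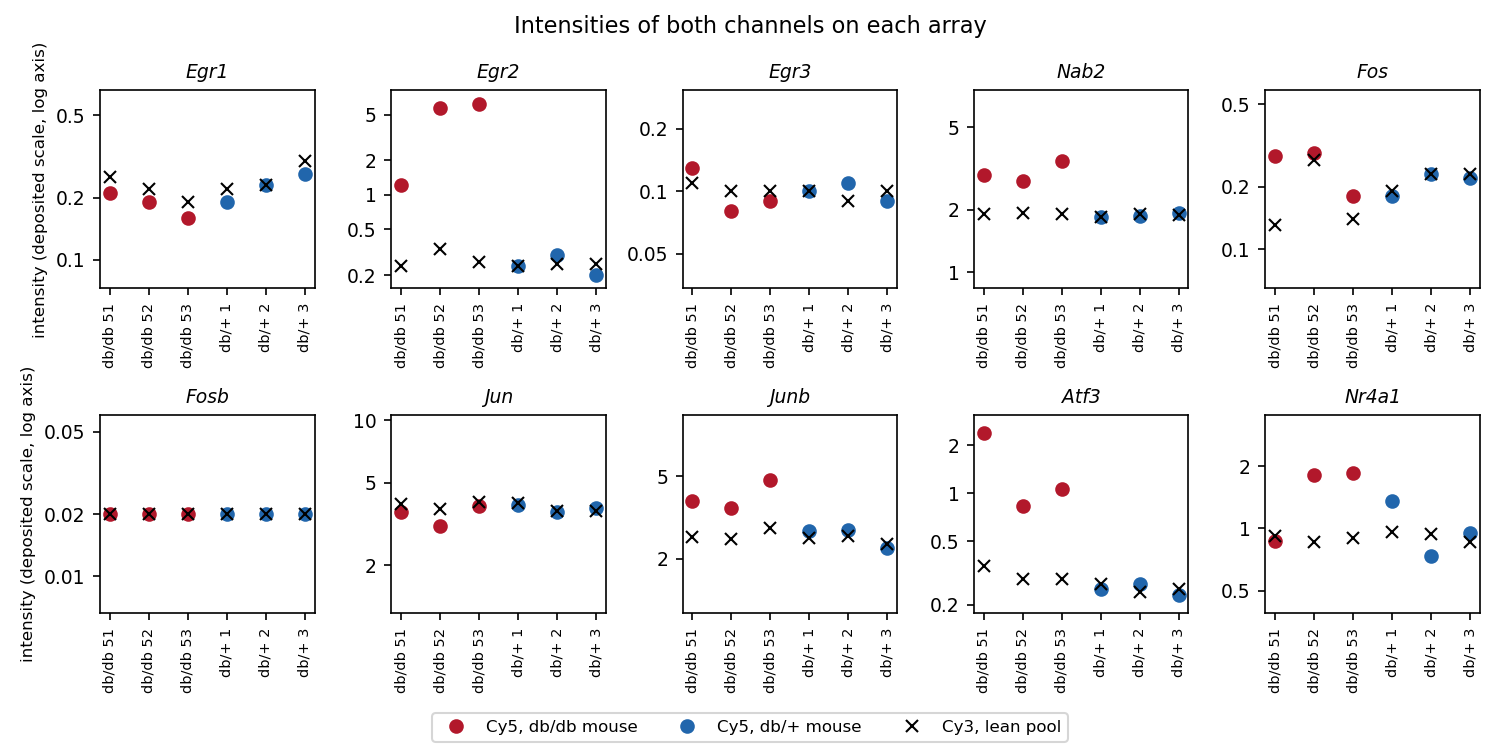
Intensity on the authors' normalized scale (log axis) of the mouse channel (Cy5, filled circles, db/db red and db/+ blue) and of the lean pool (Cy3, crosses) on each array, for the brightest probe of each gene. For Egr2 and Atf3 the crosses stay between 0.24 and 0.35 while the db/db circles rise above them; for Fos the crosses themselves range from 0.13 to 0.27.

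Among the AP-1 genes Junb, a JUN protein that often restrains c-Jun and acts with FOS proteins in early responses, gave 3.78, 3.51 and 4.80 in db/db, against 2.72, 2.76 and 2.24 in db/+. Groups did not overlap in either the intensity or the ratio, and the log2 fold change was 0.56 ± 0.10 (SE). Jun, which encodes c-Jun, gave 3.59, 3.09 and 3.85 in db/db, against 3.92, 3.60 and 3.78 in db/+, with intensities that overlapped. Its ratios, -0.13, -0.27 and -0.06 in db/db against -0.02, -0.01 and 0.05 in db/+, did not overlap, and the log2 fold change of -0.16 ± 0.07 (SE) missed the threshold. The 2 dimmer probes of Jun gave differences of -0.01 and 0.02, with overlapping groups.

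Fos, the partner of JUN proteins that is itself strongly inducible, was dim, with Cy5 intensities of 0.28, 0.29 and 0.18 in db/db, against 0.18, 0.23 and 0.22 in db/+. These intensities overlapped, whereas the ratios, 1.11, 0.10 and 0.36 in db/db against -0.08, 0.00 and -0.06 in db/+, did not. The pool channel differed between the same arrays, at 0.13, 0.27 and 0.14 on the db/db arrays and 0.19, 0.23 and 0.23 on the db/+ arrays, a coefficient of variation of 27.9% that was the highest of the 10 genes. The log2 fold change was 0.57 ± 0.28 (SE) as a ratio and 0.23 from the Cy5 channel alone, and neither passed. Without db/db mouse 51 the ratio gave 0.28. Fosb, a FOS family member induced in neurons and other cells, stood at 0.02 in both channels on all 6 arrays, so its fold change of 0.00 carries no information on its level.

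Atf3, a stress-induced ATF factor that dimerises with JUN proteins and limits inflammatory genes in macrophages, gave 2.38, 0.83 and 1.07 in db/db, against 0.25, 0.27 and 0.23 in db/+. Here mouse 51 was the highest, the reverse of its place for Egr2. The log2 ratios were 2.77, 1.52 and 1.88 in db/db, against -0.11, 0.17 and -0.12 in db/+. The log2 fold change of Atf3 was 2.08 ± 0.35 (SE), a 4.22-fold difference, and its pool signal stayed between 0.24 and 0.35.

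Nr4a1, an orphan nuclear receptor induced with EGR and FOS factors and studied in monocytes and adipose tissue, differed between the db/db mice. Its brightest probe gave 0.87, 1.82 and 1.86 in db/db, against 1.35, 0.74 and 0.95 in db/+. Mice 52 and 53 were above every db/+ mouse and mouse 51 was within their range. The log2 fold change was 0.59 ± 0.41 (SE), and it ran from 0.37 without db/+ mouse 2 to 0.97 without db/db mouse 51, in both cases short of the threshold. The second probe repeated the split with a smaller difference of 0.36, and the third, at 0.08, showed little of it.

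**Figure D3:**
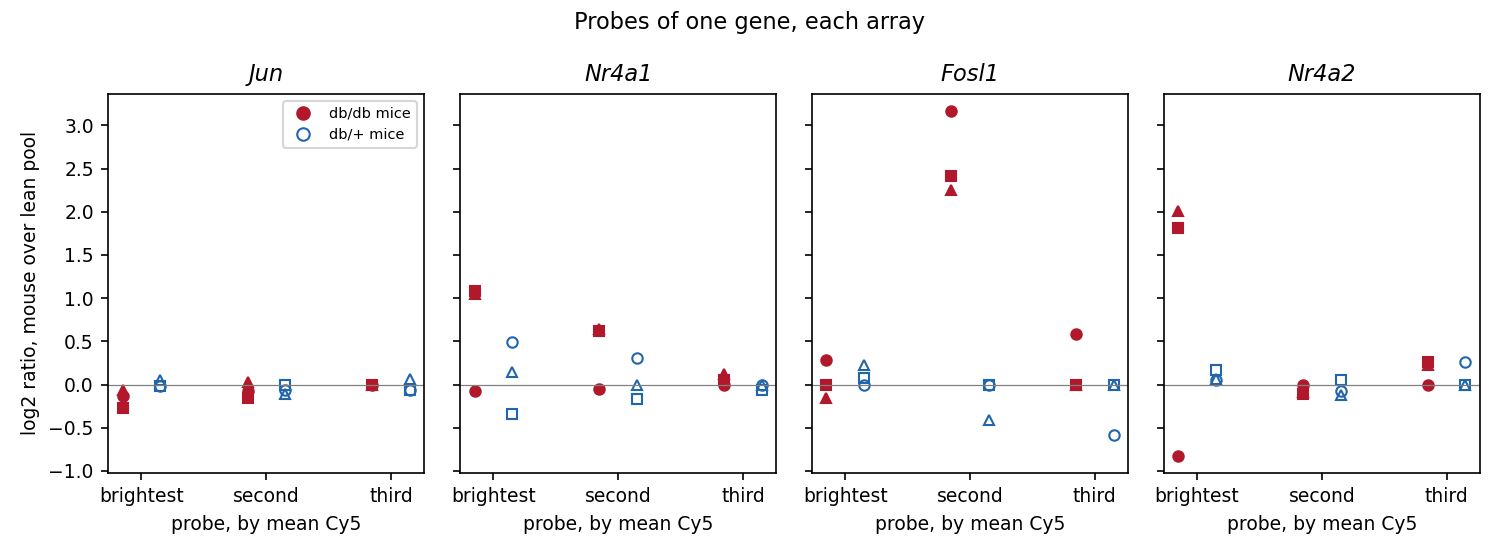
Log2 ratio of the mouse over the lean pool for each probe of Jun, Nr4a1, Fosl1 and Nr4a2, ordered by mean Cy5 intensity, with filled symbols for db/db and open symbols for db/+ arrays (circle, square and triangle for mice 51, 52 and 53 or 1, 2 and 3). The probes of a gene differ: in Fosl1 the second probe is higher in all 3 db/db mice and the brightest is not, and in Nr4a2 the brightest alone separates mice 52 and 53. That Nr4a2 probe ranks as brightest only through those mice.

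The authors' deposited table also holds a p-value for each probe and array, for the mouse against the pool on that array. For the brightest probes, p-values below 0.01 in the authors' deposited table were found for 4, 4 and 5 of the 10 genes in db/db mice 51, 52 and 53, and for 0 on each of the 3 db/+ arrays. Over all probes of the authors' deposited table these shares were 13.5%, 15.4% and 21.1% in db/db and 2.08%, 1.84% and 0.445% in db/+. Egr2 and Atf3 were below 0.01 in all 3 db/db mice in the authors' deposited table, Nab2 in mice 51 and 53, Junb and Nr4a1 in mice 52 and 53, and Fos in mouse 51. A test within 1 array reads that mouse against the pool and not 1 genotype against the other.

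The 3 db/+ mice against the lean pool give the range that ratios take with no difference in genotype. Over all genes 0 passed at a limma adjusted p under 0.05 in that test, with 225 of 17024 (1.32%) at an unadjusted p under 0.05. The spread in that test was taken over both genotypes, so its counts do not measure the range in db/+ alone. Of the 10 genes, Egr1 was below the pool in db/+, by a mean log2 ratio of -0.14 (limma adjusted p = 1), and the mean db/+ ratios of the other genes lay between -0.05 and 0.10.

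The order of the db/db mice differed between genes, and for some genes it ran beside marker genes of other cell types. For Nab2 (ratios of 0.62, 0.52 and 0.84 in mice 51, 52 and 53) and Junb (0.57, 0.49 and 0.78) it matched neither epididymis nor macrophage markers. With 3 mice few orders are possible, so a match says little. Markers of epididymis epithelium (10 of 14 measured) had median log2 ratios of -1.81, 3.95 and 4.26 in db/db mice 51, 52 and 53, against 0.72, 0.05 and -1.82 in db/+ mice 1, 2 and 3. The summed Cy5 intensity of the 9 measured on all arrays ran from 1.47 to 141.0 in db/db and from 1.45 to 11.25 in db/+, so mouse 51 and db/+ mouse 3 carried little of this signal. Egr2 and Nr4a1 were lower in mouse 51 than in mice 52 and 53, as this list was. So were the median log2 ratios of mesothelial markers, at -1.04, 0.09 and 0.21, and of smooth muscle and pericyte markers, at -0.34, 0.14 and 0.39. Within both lists the genes differed. Krt8, Krt18 and Krt19 were lowest in mouse 51, Msln and Wt1 were highest in it, and Upk1b followed neither order. Acta2, Cnn1, Myh11 and Tagln were lowest in mouse 51, and Rgs5 and Mcam were highest in it. Des stood at 0.00, 0.00 and 0.32. With the epididymis list's median as a covariate, the log2 fold changes were 2.89 ± 0.24 for Egr2 and 2.45 ± 0.26 for Atf3 (SE). Nab2 stood at 0.64 ± 0.12 and Junb at 0.51 ± 0.12 (SE). In the same fit Nr4a1 stood at 0.15 ± 0.31, against 0.59 without the covariate, and Fos at 0.89 ± 0.17, against 0.57 without it. The part of epididymis RNA in the results was not tested.

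Macrophage markers (11 of 13 measured, 5 higher and 0 lower in db/db by limma) had median ratios of 2.12, 0.82 and 1.27 in db/db, against -0.14, 0.22 and -0.02 in db/+. Their summed intensity ran from 55.16 to 115.66 in db/db and from 29.48 to 40.19 in db/+. The db/db mice followed the order 51, 53, 52 in this list, and the Atf3 ratios and intensities followed that order too. Fos followed it in its ratios but not in the mouse channel, where mouse 53 was lowest. Adipocyte markers (11 of 12 measured, 5 lower) had median ratios of -0.71, -1.19 and -1.52 in db/db, against -0.11, 0.03 and -0.01 in db/+, with summed intensities, over the 10 genes measured on all arrays, of 23.67 to 43.12 in db/db and 86.54 to 90.18 in db/+. Adipocyte genes were thus found in the tissue labelled as fat, although Pnpla2 stayed at or below 0.05 on all arrays and Cidec had no value in db/db mouse 51 and db/+ mouse 2. None of the epididymis and macrophage markers was as dim as Pnpla2 throughout. The part of either cell type in the differences of Egr2, Atf3, Nab2 and Junb was not tested. The other marker lists that could bear on cell makeup held 1 lower call among 9 endothelial genes, 1 higher and 1 lower among 9 fibroblast and progenitor genes, and none among mesothelial (6), smooth muscle and pericyte (7), skeletal muscle (6), T and NK cell (9), B cell (7), neutrophil (7) and mast cell (4) genes. Of the 9 endothelial genes 0 had a log2 fold change above 0, with a median of -0.46. An unadjusted limma p under 0.05 was found for 5 of them, against 23.2% of all genes. Such p-values were found for 4 of the 9 fibroblast and progenitor genes and 3 of the 6 skeletal muscle genes.

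**Figure D4:**
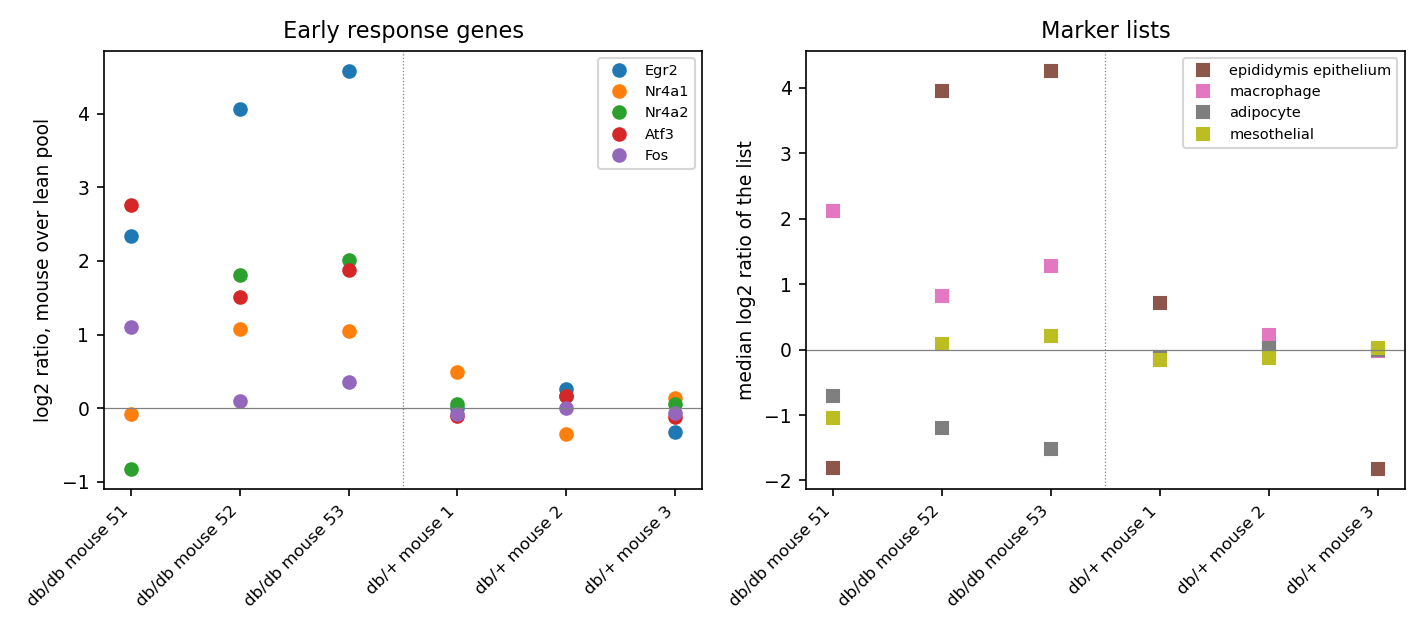
Left, log2 ratio over the lean pool of 5 early response genes on each array, db/db mice 51, 52 and 53 and then db/+ mice 1, 2 and 3; right, the median log2 ratio of 4 marker lists on the same arrays. Egr2, Nr4a1 and Nr4a2 are lower in mouse 51 than in mice 52 and 53, as are the medians of the epididymis and mesothelial lists. Single genes of the mesothelial list differ in this. Atf3 and the macrophage list are highest in mouse 51.

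Close relatives of the 10 genes were taken as a list of other EGR, NAB, FOS, JUN, ATF and NR4A genes, of which 11 of 12 were measured. None passed, and the median log2 fold change was 0.00. An unadjusted limma p under 0.05 was found for 2 of the 11 (Atf4 and Jund), where 23.2% of all genes had one. Jund, a JUN protein present without stimulation, gave 8.34, 10.58 and 12.09 in db/db, against 7.71, 7.33 and 7.25 in db/+, with a log2 fold change of 0.43 ± 0.16 (SE, limma adjusted p = 0.192). Atf4, the effector of the integrated stress response, had a log2 fold change of 0.31 ± 0.09 (SE, limma adjusted p = 0.118). For both genes the db/db ratios lay above the db/+ ratios, and both missed the threshold. On the brightest Atf4 probe the Cy5 intensities overlapped, at 27.38, 28.08 and 25.43 in db/db against 27.57, 23.33 and 25.63 in db/+. Its pool gave 20.55, 19.14 and 20.91 on the db/db arrays, against 24.46, 23.21 and 23.28 on the db/+ arrays. From the Cy5 channel alone Atf4 stood at 0.08. Its Cy5 lay near the highest of any probe, 26.85 to 30.50 by array. The second Atf4 probe differed by 0.41, with Cy5 of 24.05 to 25.95 against 17.47 to 18.77. Without db/db mouse 51, Jund stood at 0.59 (limma adjusted p = 0.00983) and passed, and 3 genes of the list did. Atf4 passed as the mean of its probes (0.36, limma adjusted p = 0.0496), and both passed with array weights, where 4 genes of the list did.

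Nr4a2, a receptor of the same subfamily as Nr4a1, had 0.13, 0.77 and 1.09 in db/db, against 0.26, 0.27 and 0.25 in db/+ on its brightest probe. The ratios were -0.82, 1.81 and 2.01 in db/db, with mouse 51 below the db/+ range of 0.06 to 0.17, and the fold change was 0.90 ± 0.83 (SE, limma adjusted p = 0.551). It was 1.82 and passed without db/db mouse 51 (limma adjusted p = 0.00453), and it was 0.50 without mouse 52 and 0.40 without mouse 53. Its 2 other probes differed by -0.02 and 0.07. The brightest Nr4a2 probe ranked first only through db/db mice 52 and 53. In db/+ the second probe was brighter, at 0.39, 0.28 and 0.35, so the choice of probe leaned on the mice where the first was high. Fosl1, which encodes the FOS relative FRA1, was at -0.06 ± 0.13 (log2, SE, limma adjusted p = 0.842) on its brightest probe. Its second probe gave 0.27, 0.16 and 0.19 in db/db, against 0.03, 0.04 and 0.03 in db/+, a log2 difference of 2.75 that rests on a few steps of 0.01 in db/+, and the third differed by 0.39. Nab1, the other NAB corepressor, differed by 0.10, Nr4a3 by -0.03 and Egr4 by 0.00, the last at Cy5 intensities near the lowest step. Maff, with 2 db/db values, stood at -0.68 ± 0.25 (log2, SE, limma adjusted p = 0.230). Batf3 stood at -0.35 ± 0.14 (log2, SE, limma adjusted p = 0.226), with overlapping ratios. Jdp2 differed by -0.08 and Fosl2, at mean Cy5 of 10.8 in db/db and 10.9 in db/+, by 0.07.

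Growth factor ligands and receptors that induce early genes (11 of 15 measured) had a median of 0.29 with 3 higher. Hbegf, a membrane-bound EGF receptor ligand, rose by 1.36 ± 0.16 (SE, limma adjusted p = 0.022), with ratios of 1.17, 1.72 and 1.39 in db/db, against 0.19, 0.00 and 0.00 in db/+. The Hbegf Cy5 intensities in db/+ were only 0.08, 0.08 and 0.07. Ereg, the ligand epiregulin, rose by 1.35 ± 0.24 (SE, limma adjusted p = 0.0443). It was dim, at Cy5 of 0.17, 0.09 and 0.13 in db/db against 0.05, 0.08 and 0.04 in db/+. With 0.05 added to both intensities Ereg stood at 0.83 and did not pass (limma adjusted p = 0.051). Pdgfra, a PDGF receptor of mesenchymal progenitors, rose by 0.64 ± 0.12 (SE, limma adjusted p = 0.0499). The dimmer probes of Ereg and Pdgfra gave -0.21 and -0.33, that of Ereg at a mean Cy5 of 0.0089, too dim to inform. Over all genes the median is 0.00 and 6.7% pass, and these lists were chosen with earlier results of the data known.

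Beside the 10 genes, 23 of 25 other immediate early and early response genes were measured, with a median of 0.14, and 8 had an unadjusted p under 0.05, against 23.2% of all genes. Myc, the growth-promoting transcription factor, was the 1 that passed, higher by 0.52 ± 0.04 (log2, SE, limma adjusted p = 0.012), with ratios of 0.51, 0.49 and 0.44 in db/db, against -0.09, -0.05 and 0.00 in db/+. Its dimmer probes gave 0.17 and 0.05. Of the MAP kinase phosphatase and sprouty genes that feed back on the same pathway 10 of 13 were measured, with a median of 0.37. Spred1, a Sprouty-related inhibitor of the RAS and RAF step, passed at 0.46 ± 0.08 (log2, SE, limma adjusted p = 0.0472), and 6 genes of the 10 had an unadjusted p under 0.05, against 23.2% of all genes. Heat shock and handling-stress genes (9 of 10 measured) had a median of 0.13, with 0 passing by limma and 2 at an unadjusted p under 0.05, near the 23.2% of all genes.

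Genes described as EGR targets had a median log2 fold change of 0.08 over 16 measured of 17, with 1 higher and 1 lower. Cd44, the hyaluronan receptor, rose by 2.01 ± 0.32 (SE, limma adjusted p = 0.0379), with ratios of 2.50, 1.38 and 1.89 in db/db, against -0.14, 0.18 and -0.29 in db/+. Vegfa, the main angiogenic growth factor, fell by 1.26 ± 0.21 on the log2 scale (SE, limma adjusted p = 0.041). Its Cy5 intensities were low, at 0.12, 0.07 and 0.09 in db/db against 0.23, 0.29 and 0.17 in db/+. Genes described as AP-1 targets had a median of 1.20 over 15 measured of 16, with 4 higher, 0 lower and 11 at an unadjusted p under 0.05, against 23.2% of all genes. Mmp12, macrophage elastase, was higher by 3.43 ± 0.37 (log2, SE, limma adjusted p = 0.0193), Ccl2, the monocyte chemoattractant, by 2.74 ± 0.30 (limma adjusted p = 0.0197), and Timp1, a metalloproteinase inhibitor, by 2.21 ± 0.17 (limma adjusted p = 0.0121). Cd44 stands in both target lists, and Mmp12 is also on the macrophage marker list. All 6 probes of Ccl2 gave between 2.63 and 2.81. Timp1 was dim in db/+, at Cy5 of 0.08, 0.10 and 0.07.

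The 10 named calls of these lists kept their direction in every alternative run, and 7, 4 and 3 of them still passed without db/db mouse 51, 52 and 53. Without db/+ mouse 1, 2 and 3 the numbers that still passed were 2, 0 and 0, the 2 being Myc and Pdgfra. As the mean of all probes of a gene 7 passed, and Myc stood at 0.25 (limma adjusted p = 0.278).

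**Figure D5:**
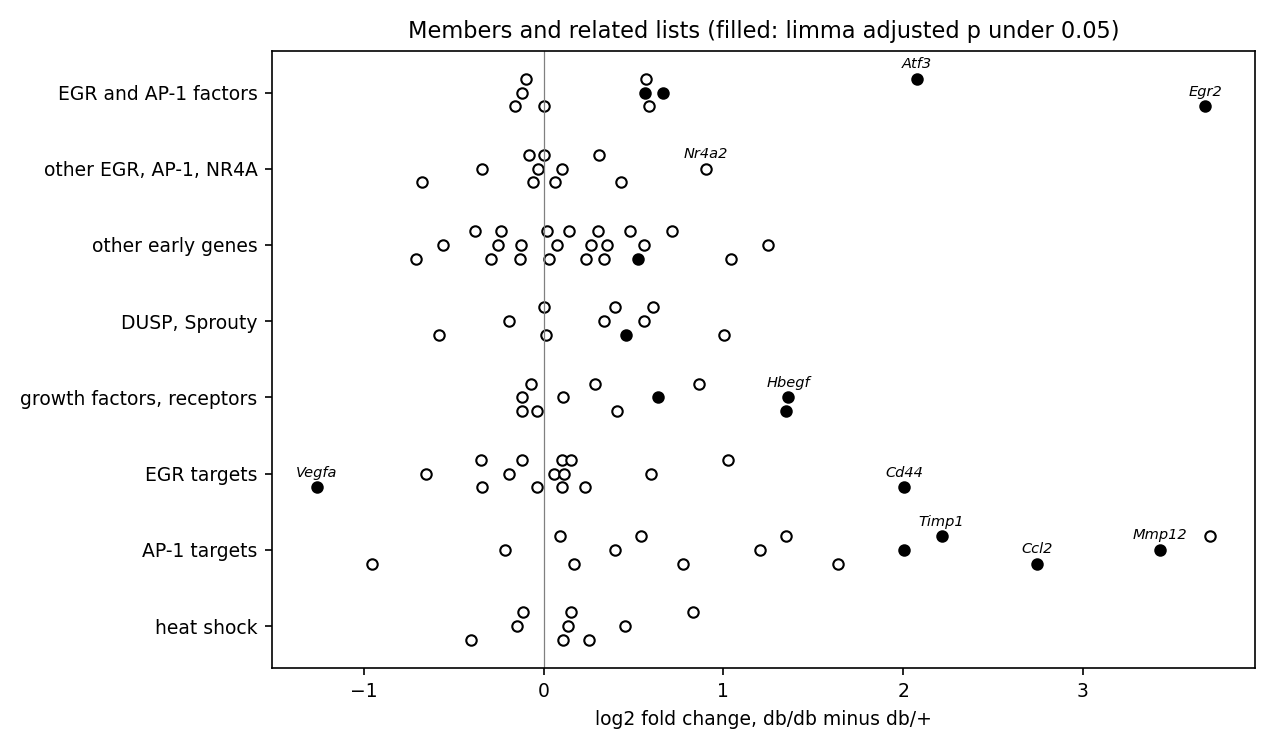
Log2 fold change, db/db minus db/+, of each measured gene (circle) in the set of 10 genes and in 7 related lists, filled where the limma adjusted p is under 0.05. Egr2 and Atf3 lie at 3.68 and 2.08, most genes of the other early gene lists lie within 1 of 0, and the AP-1 target list reaches furthest to the right, with Vegfa the 1 filled circle left of 0.

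For 4 of the genes the profile over the 6 arrays was compared with those of 8434 brighter genes, as a description. The highest Pearson correlations with Egr2 were those of Tmem141 (0.999), Rlim (0.998), Rprd1a (0.997), Rpl28-ps1 (0.996) and Faf2 (0.996), whose own log2 fold changes ran from 0.14 to 0.93. The genes most like Atf3 were Rrm2 (0.999), Slc37a2, Pik3ap1, Adssl1 and Glipr1, with fold changes from 1.56 to 2.80 on the log2 scale and, like Atf3, their highest ratio in mouse 51. Fos ran most closely with Pdcd6ip (0.993), Gna13, Dnmt3a, Polr3d and Ptpn18, each highest in mouse 51. Egr1 ran with Ldb1 (0.988), Cox6b2, Ndor1, Tmem123 and 2210402A03Rik, which share a high ratio in db/+ mouse 2. With 6 arrays and 8434 genes to choose from, values near 1 are found for many profiles, and the points share the pool and the labelling.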

How the data were processed

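The authors deposited a table of probe intensities for both channels of 6 Agilent arrays, on a normalized scale that is mostly in steps of 0.01 (97.3% of values), and a p-value for each probe and array, per the file headers. They also deposited a matrix of log10 ratios of mouse over pool. Per the labels' protocols, RNA was amplified in 2 rounds, and the submitters' processing notes name Agilent Feature Extraction 8.5.1.1. For background correction, normalization and the error model, the steps were not given in the sources used here.

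Log2 ratios of the Cy5 over the Cy3 intensity were used as deposited, without filter or pseudocount. Each gene is shown by its brightest probe (highest mean Cy5) of those with 6 values or, where no probe had them, with at least 2 values per group. Symbols were current for 17207 probes, updated through a synonym for 1790 and through an accession for 317, taken from the accession for 7, left as in the file for 2018 and absent for 2217. In R 4.3.3, limma 3.58.1 (lmFit, eBayes, no block, prior of 0.814 degrees of freedom) compared db/db with db/+ over 17024 genes, with Benjamini-Hochberg adjustment and a threshold of 0.05. The db/db columns carry mouse numbers that do not match the replicate numbers of the labels. Arrays gave 23355 to 23506 measured probes, 31.7% to 37.9% of Cy5 intensities were at or below 0.05, and log2 ratios had an SD of 0.526 to 0.680 in db/db and 0.235 to 0.279 in db/+. The number of arrays limits the precision. None of the 10 genes was near the ceiling of the scale, and 20 of the genes called had no spread in either group. Lepr, which carries the db mutation, gave a log2 fold change of -0.12, but checks nothing about the labels, since the position of its probe is unknown here.

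The genes and lists were chosen with earlier results of these data known. Named genes are the 10 members, the related family genes, up to 3 calls of each other list by size, and the 5 genes most correlated with Egr1, Egr2, Fos and Atf3. Promoter sequences are from RefSeq (GRCm38.p6). One gene list is not reported here. The fit was tested on simulated data. Tables were handled with Python 3.11.15, numpy 2.4.6, pandas 2.3.3 and matplotlib 3.10.9. Alternatives covered scaling, loess, array weights, the pseudocount, dim probes, the probe rule, the Cy5 channel, the deposited log10 matrix, single arrays, the replicate block and an epididymis covariate.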

Additional observations from a re-analysis of the deposited data

How the results depend on the processing

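Of the 10 genes 4 passed, and 1141 genes in all. Both counts fell to 0 after quantile normalization of the ratios (2093 genes and 3 of the 10 at an unadjusted limma p under 0.05) and with the replicate block on the deposited matrix (3084 and 4). The replicate numbers of the labels did not pair the samples: the deviations of same-numbered db/db and db/+ arrays correlated at -0.48, -0.413 and -0.0229. From the Cy5 intensity alone 374 genes and 2 of the 10 passed (Egr2 and Atf3), and with array weights 6676 and 6, adding Jun and Nr4a1, with a weight of 5.44 on mouse 52 and 0.164 on mouse 51. Leaving out 1 array at a time gave 53 to 3413 genes and 0 to 4 of the 10. Each db/db mouse alone against db/+ gave 1789, 2192 and 3234 genes for mice 51, 52 and 53, with 3, 3 and 4 of the 10. With the epididymis covariate 837 genes and 2 of the 10 passed. Loess, 0.05 added to both intensities, a filter on dim genes and the mean of all probes left the 4 calls in place, with 1041 to 1553 genes. The filter kept 8 of the 10. Median centring could not alter the calls, since the median log2 ratio was 0 on each array. The deposited matrix without a block also left the 4 calls. On the db/+ arrays it differed from the ratios used by at most 0.0041 (log2), so it is hardly a separate check. Directions turned as follows, and the cause was not tested: Egr1 to 0.13 after quantile normalization; Egr3 to 0.20 and Nr4a1 to -0.18 with mouse 51 alone; Egr3 to 0.017 with the covariate. Jun was 0.023 on its dimmest probe. Fosl1 was 1.03 as the mean of its probes, 0.040 without db/db mouse 53, 0.18 with mouse 51 alone and 0.10 with the covariate. Nr4a2 was -0.92 with mouse 51 alone and -0.10 with the covariate. With 1 array left out, Nr4a3 ran from -0.21 without db/db mouse 51 to 0.16 without db/db mouse 52. It was 0.32 with mouse 51 alone, -0.42 with mouse 52 alone, -0.37 with array weights and 0.16 with the covariate. Nab1 was -0.077 with mouse 53 alone. Maff, Batf3, Jdp2 and Fosl2 were not followed singly through these settings. Egr2, Nab2, Junb, Atf3 and Fos stayed above 0 in all these settings. Rounding limits the values of Fosb, Egr1, Egr3, Egr4 and Nr4a3, and those of Ereg, Hbegf, Vegfa and Timp1.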
